A study of Mus musculus with 12 samples.

Results

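Prostaglandins and leukotrienes are lipid signals made from arachidonic acid, and 10 mouse genes of this pathway are described here: Ptgs1, Ptgs2, Ptges, Hpgds, Tbxas1, Alox5, Alox5ap, Ltc4s, Ptger2 and Ptger4. They were taken by name from a table of 23845 genes, and all 10 were present and passed the filter on low counts that left 15295 genes to test. RNA was sequenced from microglia, the resident macrophages of the brain, isolated on Percoll gradients. The mice were C57BL6/J and 3 to 4 months old. The groups were CPEB1-KO-LPS (mice labelled CPEB1 knockout and injected with lipopolysaccharide), CPEB1-KO (labelled knockout, no injection stated), WT-LPS (wild type, injected) and WT (wild type, no injection stated), with 3 libraries each and 1 animal per library. Lipopolysaccharide (LPS), a component of the outer membrane of Gram-negative bacteria, was given 24 h before the cells were collected. CPEB1 binds mRNAs and regulates the length of their poly(A) tails and their translation. The sources used here do not say how the knockout was made, which LPS dose was used or the sex of the mice.

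In this pathway, phospholipases free arachidonic acid from membranes. The cyclooxygenases COX-1 (Ptgs1) and COX-2 (Ptgs2) turn it into prostaglandin H2, from which separate synthases make prostaglandin E2 (Ptges), prostaglandin D2 (Hpgds) and thromboxane A2 (Tbxas1). On the leukotriene branch, 5-lipoxygenase (Alox5) works with its activating protein FLAP (Alox5ap) to form leukotriene A4, and leukotriene C4 synthase (Ltc4s) adds glutathione to it. Ptger2 and Ptger4 encode the EP2 and EP4 receptors of prostaglandin E2, which signal through cyclic AMP. In macrophages and microglia, Ptgs2 and Ptges are known as genes induced by LPS, while Ptgs1 is usually expressed without a stimulus.

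Library totals ran between 5.02 and 13.5 M expected counts (M stands for 1e+06). The 12 microglia markers examined, among them P2ry12, Csf1r and C1qa, were all above 0 in every library. Their mean log2(TPM + 1) was 5.83, 4.998 and 7.13 in CPEB1-KO-LPS, 8.14, 7.74 and 7.55 in CPEB1-KO, 5.63, 7.38 and 6.87 in WT-LPS, and 8.73, 8.82 and 8.64 in WT (replicates 1 to 3). TPM is the number of transcripts of a gene per 1e+06 transcripts of its library, which corrects for transcript length. CPEB1-KO-LPS replicate 2 and WT-LPS replicate 1 therefore stood lowest of their groups, and the results that follow are also given without both where the call changed. With bulk RNA, fewer cells of a type and less RNA per cell cannot be told apart. Cpeb1 itself had 34.6, 40.6 and 24.0 TPM in CPEB1-KO-LPS, 17.6, 26.4 and 21.3 TPM in CPEB1-KO, 40.2, 24.1 and 45.1 TPM in WT-LPS, and 19.95, 15.5 and 43.3 TPM in WT. The genotypes overlapped (log2 difference -0.58 ± 0.31 for CPEB1-KO against WT, SE, edgeR adjusted p = 0.334). A gene-level count covers all exons and the deleted part is not given, so Cpeb1 does not check the genotype, which rests on the labels throughout.

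Without LPS, Ltc4s, Alox5ap and Ptgs1 had the highest levels among the 10 genes; Ptgds, a prostaglandin D2 synthase outside the 10 that is described with the other pathway genes, was higher than all of them. Ltc4s averaged 95.5 ± 33.8 TPM in CPEB1-KO and 226 ± 46.9 TPM in WT (SD, n = 3 each). Alox5ap averaged 106 ± 27.0 TPM in CPEB1-KO and 163 ± 37.6 TPM in WT, and Ptgs1 averaged 48.3 ± 5.17 and 83.3 ± 9.003 TPM in the same groups. The ranges of Ltc4s and Alox5ap overlapped in both groups, and the Ptgs1 range lay below both, with no overlap. Hpgds (25.3 ± 4.74 TPM in CPEB1-KO, 44.7 ± 8.80 TPM in WT) and Tbxas1 (15.9 ± 3.67 TPM in CPEB1-KO, 31.7 ± 3.76 TPM in WT) came next, then Alox5 (6.78 ± 1.85 TPM in CPEB1-KO, 5.85 ± 2.05 TPM in WT). Ptges and Ptgs2 were near each other and low: Ptges averaged 1.78 ± 0.143 TPM in CPEB1-KO and 2.45 ± 0.907 TPM in WT, and Ptgs2 averaged 1.78 ± 0.336 TPM in CPEB1-KO and 1.79 ± 0.560 TPM in WT. The receptors Ptger4 and Ptger2 stayed below 2 TPM in all 6 untreated libraries.

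**Figure D1:**
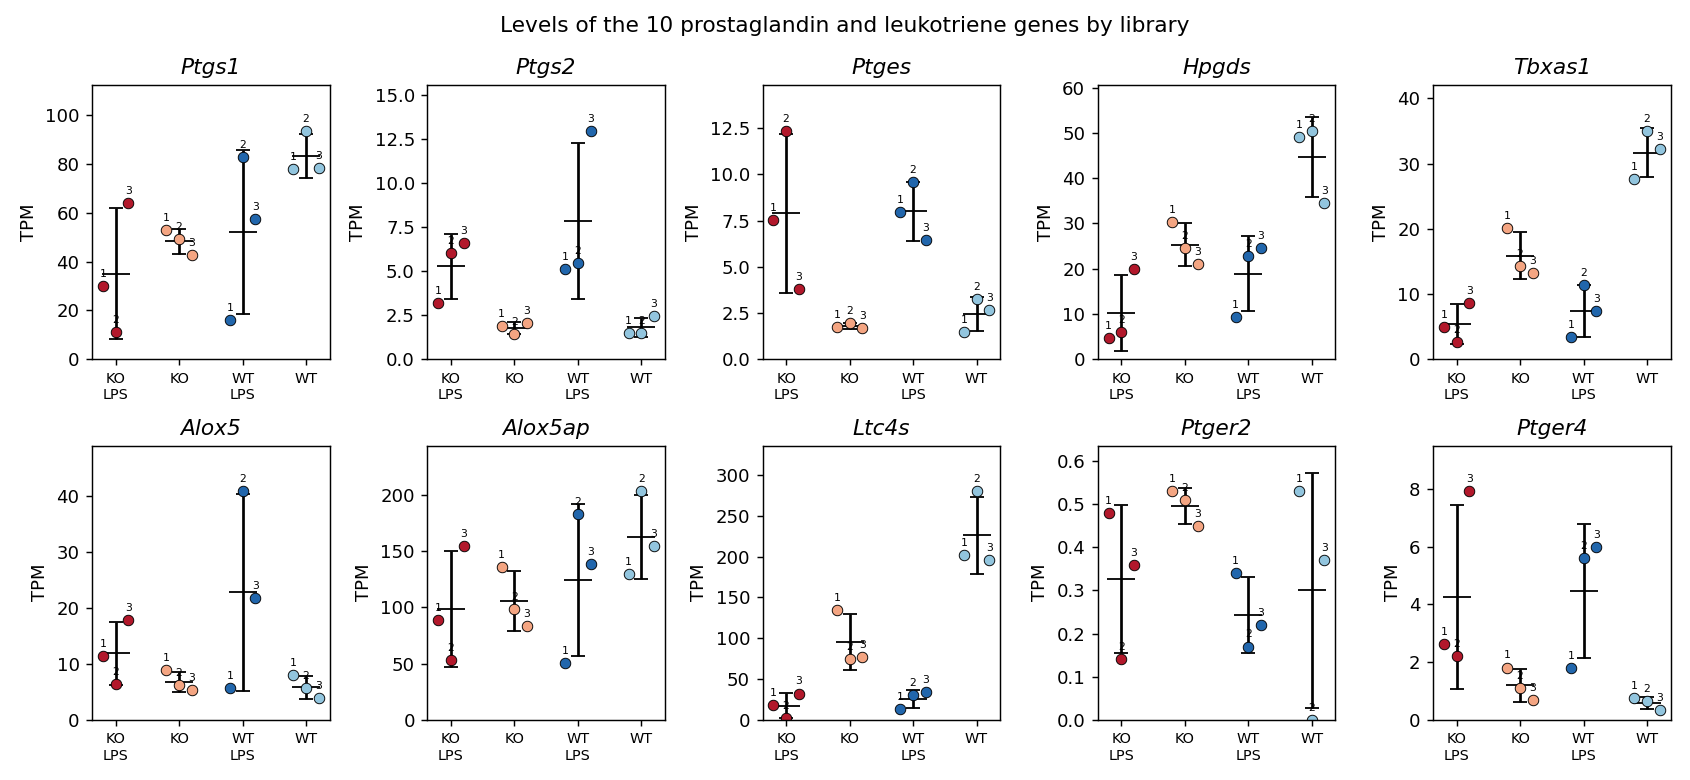
TPM of the 10 genes in each library (points, labelled by replicate) with the mean and SD of each group (bars, n = 3); the vertical axes start at 0 and differ between genes. Ptgs2, Ptges and Ptger4 lie higher, and Tbxas1, Ltc4s and Hpgds lower, in all LPS libraries than in the untreated libraries of the same genotype. By counts scaled for library size, 17.5% of all genes tested were higher and 20.1% lower without overlap in WT-LPS against WT. In CPEB1-KO-LPS against CPEB1-KO these shares were 18.9% and 16.5%, and Hpgds overlapped there on that scale.

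After LPS, wild-type preparations had more mRNA of COX-2 (Ptgs2), of the prostaglandin E2 synthase Ptges and of the EP4 receptor Ptger4, and less of the D2 synthase Hpgds, the thromboxane synthase Tbxas1 and the leukotriene C4 synthase Ltc4s. In the libraries labelled knockout, the rises of Ptges and Ptgs2 passed the test and no fall did. So 3 of the 10 genes rose and 3 fell in WT-LPS against WT, where 12.4% of all genes tested were higher, 14.9% were lower and 27.4% were called in either direction at a false discovery rate (FDR) of 0.05. In CPEB1-KO-LPS against CPEB1-KO 2 of the 10 rose and 0 fell, where 4.1% of all genes were higher, 2.12% were lower and 6.22% were called in either direction. The 0 falls compare with 6 of the 10 genes at an unadjusted p under 0.05 in edgeR in either direction, and with 1 fall by DESeq2. Such an unadjusted p was found there for 3136 of the 15295 genes tested. The median log2 change of the 10 genes was -0.16 in CPEB1-KO-LPS against CPEB1-KO, beside 0.00 over all genes, and -0.69 in WT-LPS against WT, beside -0.03 over all genes. On the TPM scale, the limma changes in WT-LPS against WT lay a median of 0.34 log2 units above those of edgeR. Of the limma calls, 3380 of 4467 were higher, beside 1900 of 4185 in edgeR. The 6 genes called in edgeR kept their direction on both scales.

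The rises called in both genotypes were those of Ptgs2 and Ptges, and the promoters of both are printed for that reason. Each line gives the 250 bases before the RefSeq start of the gene (GRCm38.p6), 5′ to 3′ on the strand of the gene. The RefSeq start used for Ptges lies inside the GENCODE span of the gene given below. The 5′ end of that span was not searched. Capitals mark matches to GAGGAA (a PU.1 core) or TTNNGNAA (a C/EBP pattern) on either strand.
Ptgs2, chr1:150099781-150100030, plus strand: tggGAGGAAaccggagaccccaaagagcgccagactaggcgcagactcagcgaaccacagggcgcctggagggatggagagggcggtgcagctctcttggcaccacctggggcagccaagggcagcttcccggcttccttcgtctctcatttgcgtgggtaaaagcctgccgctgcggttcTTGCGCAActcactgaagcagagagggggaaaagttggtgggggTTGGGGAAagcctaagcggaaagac
Ptges, chr2:30903298-30903547, minus strand: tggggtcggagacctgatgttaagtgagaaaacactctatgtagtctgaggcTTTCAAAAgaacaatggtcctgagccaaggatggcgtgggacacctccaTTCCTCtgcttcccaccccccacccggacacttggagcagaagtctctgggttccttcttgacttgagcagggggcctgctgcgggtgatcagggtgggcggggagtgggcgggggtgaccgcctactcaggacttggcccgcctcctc
The Ptgs2 window held a GAGGAA match at positions -247 to -242 and C/EBP matches at -69 to -62, on both strands, and at -25 to -18, counted from the start. The Ptges window held a C/EBP match at -198 to -191 and a GAGGAA match at -149 to -144, both on the minus strand of the motif. With 50 further bases after the start included, GAGGAA was found in 7 of the 9 promoters that matched a RefSeq entry and in 28.3% of all 32851 promoters of that length. C/EBP was found in 4 of the 9 and in 40.7% of all. The full CRE (TGACGTCA) was in 0 of the 9 against 1.79% of all, and a kappaB pattern was in 0 of the 9 against 8.46% of all. The Ptgs2 window also held, after the start, a shortened CRE (TGACG, 20.8% of all promoters) at 14 to 18, which overlaps an E-box (CACGTG, 7.15% of all) at 17 to 22. These are letter matches in 1 window per gene, with no measurement of binding. The Alox5ap promoter is not shown.

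Ptgs2 (chr1:150100031-150108227 in GRCm38, plus strand) had 3.18, 6.01 and 6.59 TPM in CPEB1-KO-LPS and 1.85, 1.41 and 2.07 TPM in CPEB1-KO. It had 5.09, 5.45 and 12.97 TPM in WT-LPS and 1.47, 1.47 and 2.44 TPM in WT. All LPS libraries lay above all untreated libraries, and WT-LPS replicate 3 stood well above the rest. For this and the other separations over both genotypes below, the share of all genes was not counted. Its log2 change was 1.64 ± 0.42 in CPEB1-KO-LPS against CPEB1-KO (SE, adjusted p = 0.0364) and 1.76 ± 0.43 in WT-LPS against WT (adjusted p = 0.00954). Without WT-LPS replicate 3 the wild-type change was 1.27 and its adjusted p 0.0517. The knockout call is less stable, as it was lost in 9 of 22 alternative settings, with adjusted p values up to 0.163. One of these was the fit without CPEB1-KO-LPS replicate 2 and WT-LPS replicate 1 (1.60, adjusted p = 0.0720).

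Ptges, the inducible synthase that acts beside COX-2 (chr2:30889471-30929863, minus strand), had 7.52, 12.4 and 3.78 TPM in CPEB1-KO-LPS and 1.75, 1.94 and 1.66 TPM in CPEB1-KO. Its levels were 7.96, 9.58 and 6.43 TPM in WT-LPS and 1.46, 3.24 and 2.65 TPM in WT. No LPS library overlapped the untreated libraries, and the highest value of all came from CPEB1-KO-LPS replicate 2, the library with the lowest microglia marker level. Ptges rose by 2.14 ± 0.42 on the log2 scale in CPEB1-KO-LPS against CPEB1-KO (adjusted p = 0.00910) and 1.34 ± 0.42 in WT-LPS against WT (adjusted p = 0.0313). The first was lost without CPEB1-KO replicate 3 (adjusted p = 0.0514), and the second without WT replicate 1 (0.0901), without WT replicate 3 (0.0770) or without WT-LPS replicate 2 (0.103).

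Ptger4, the EP4 receptor (chr15:5206661-5244187, minus strand), had 2.63, 2.21 and 7.91 TPM in CPEB1-KO-LPS and 1.81, 1.10 and 0.67 TPM in CPEB1-KO. In WT-LPS it had 1.78, 5.59 and 5.98 TPM, against 0.77, 0.64 and 0.34 TPM in WT. Within each genotype the LPS libraries were all higher, and in both LPS groups the lowest value came from the library with the lowest microglia marker level. Ptger4 rose by 2.57 ± 0.71 on the log2 scale in WT-LPS against WT (adjusted p = 0.0171). In CPEB1-KO-LPS against CPEB1-KO it was 1.95 ± 0.64 and did not pass (adjusted p = 0.0923), although DESeq2 gave an adjusted p of 0.0293, and leaving CPEB1-KO-LPS replicate 2 and WT-LPS replicate 1 out of the edgeR fit gave 0.0383. The wild-type call was lost without WT replicate 3 (0.0674), WT-LPS replicate 2 (0.0525) or WT-LPS replicate 3 (0.0538). Ptger4 shares 11676 bases with Ttc33 on the other strand, and since no strand setting is stated, reads from that stretch cannot be assigned to 1 of the genes.

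Ptger2, the EP2 receptor (chr14:44988195-45003820, plus strand), was the least expressed of the 10. It was listed at 0.48, 0.14 and 0.36 TPM in CPEB1-KO-LPS, 0.53, 0.51 and 0.45 TPM in CPEB1-KO, 0.34, 0.17 and 0.22 TPM in WT-LPS, and 0.53, 0.00 and 0.37 TPM in WT. These values rest on 25, 38, 18 and 17 expected counts per group in that order. The 0 of WT replicate 2 allows a level of up to 0.597 counts per 1e+06 (3 counts of its total), so the groups could not be ranked at this depth.

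The largest falls among the 10 genes were those of Ltc4s and Tbxas1, which remained called in WT-LPS against WT in all 23 alternatives run. Their promoters are printed for that reason, in the same form, with capitals also for TATAAA. The RefSeq start used for Tbxas1 lies inside the GENCODE span of the gene given below, and the 5′ end of that span was not searched.
Ltc4s, chr11:50238533-50238782, minus strand: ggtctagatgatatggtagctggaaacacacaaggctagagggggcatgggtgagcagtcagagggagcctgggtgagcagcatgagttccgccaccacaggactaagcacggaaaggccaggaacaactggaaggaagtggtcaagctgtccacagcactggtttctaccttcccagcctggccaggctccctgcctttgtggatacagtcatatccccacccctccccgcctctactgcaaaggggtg
Tbxas1, chr6:38918736-38918985, plus strand: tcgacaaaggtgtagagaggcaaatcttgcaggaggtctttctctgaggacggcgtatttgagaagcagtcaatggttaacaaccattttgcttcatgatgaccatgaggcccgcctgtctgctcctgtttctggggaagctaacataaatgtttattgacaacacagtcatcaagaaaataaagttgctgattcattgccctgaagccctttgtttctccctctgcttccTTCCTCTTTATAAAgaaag
The Ltc4s stretch holds no match in capitals, as its GAGGAA match lies after the start, at 17 to 22. In Tbxas1 a GAGGAA match at -19 to -14, on the minus strand of the motif, is followed by TATAAA at -13 to -8 (minus) and -11 to -6 (plus), which overlap each other. TATAAA was in 1 of the 9 promoters and in 13.6% of all.

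Ltc4s (chr11:50236461-50238616, minus strand) had 17.99, 2.24 and 32.2 TPM in CPEB1-KO-LPS and 135, 74.4 and 77.4 TPM in CPEB1-KO. It had 13.4, 29.9 and 33.8 TPM in WT-LPS, against 202, 279.9 and 196 TPM in WT. The LPS libraries were all lower, and the lowest value came from CPEB1-KO-LPS replicate 2, with 6 expected counts. For Ltc4s the log2 change was -3.52 ± 0.68 in WT-LPS against WT (adjusted p = 0.00278), and only 0.503% of all genes tested had a lower value. In CPEB1-KO-LPS against CPEB1-KO it was -2.31 ± 0.66 and just missed the threshold (adjusted p = 0.0568). It passed there in 8 of 22 alternatives, among them DESeq2 (0.0104), limma on log2(TPM + 1) (0.0173) and the fit without CPEB1-KO-LPS replicate 2 and WT-LPS replicate 1 (-1.74, 0.0463).

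Tbxas1 (chr6:38875404-39084585, plus strand) had 4.84, 2.56 and 8.67 TPM in CPEB1-KO-LPS and 20.1, 14.3 and 13.2 TPM in CPEB1-KO. In WT-LPS it had 3.40, 11.3 and 7.37 TPM, against 27.6, 35.1 and 32.3 TPM in WT. The LPS libraries again lay below the untreated libraries of their genotype, and below all untreated libraries. For Tbxas1 the log2 change was -1.48 ± 0.51 in CPEB1-KO-LPS against CPEB1-KO (adjusted p = 0.107) and -2.46 ± 0.51 in WT-LPS against WT (adjusted p = 0.00431). Limma on log2(TPM + 1) called the knockout fall as well (0.0401), as did edgeR without CPEB1-KO-LPS replicate 3 (0.0256). Tbxas1 overlaps 762 bases of Hipk2 and 3721 bases of 1700025N23Rik on the other strand, where reads cannot be told apart without strand.

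Hpgds, the prostaglandin D2 synthase of blood-derived cells and microglia (chr6:65117293-65144908, minus strand), had 4.62, 6.06 and 19.9 TPM in CPEB1-KO-LPS and 30.3, 24.5 and 20.9 TPM in CPEB1-KO. Its levels were 9.31, 22.8 and 24.6 TPM in WT-LPS and 49.0, 50.5 and 34.6 TPM in WT. CPEB1-KO-LPS replicate 3 stood close to the untreated libraries of its genotype. The log2 change was -1.61 ± 0.54 in WT-LPS against WT (adjusted p = 0.0423), a call that was lost in 13 of 23 alternatives, with adjusted p values up to 0.143. In CPEB1-KO-LPS against CPEB1-KO it was -1.18 ± 0.54 (adjusted p = 0.239). It was -2.31 when CPEB1-KO-LPS replicate 3 was left out (adjusted p = 0.00719). Without CPEB1-KO-LPS replicate 2 and WT-LPS replicate 1 the wild-type change was -1.20 and was not called (adjusted p = 0.121).

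Ptgs1, the constitutive cyclooxygenase (chr2:36230426-36252272, plus strand), had 30.1, 11.1 and 64.1 TPM in CPEB1-KO-LPS and 53.0, 49.1 and 42.8 TPM in CPEB1-KO. It had 16.1, 82.96 and 57.3 TPM in WT-LPS and 77.8, 93.7 and 78.4 TPM in WT. The LPS groups spread widely and overlapped the untreated ones. The log2 change was -0.34 ± 0.61 in CPEB1-KO-LPS against CPEB1-KO (adjusted p = 0.807) and -1.02 ± 0.61 in WT-LPS against WT (adjusted p = 0.228). With the replicate number as a block in a fit of the WT-LPS and WT libraries alone, the wild-type value was -1.27 ± 0.34 and passed (adjusted p = 0.0165). Without CPEB1-KO-LPS replicate 2 and WT-LPS replicate 1 the knockout value was 0.12 and was not called.

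Alox5 (chr6:116410077-116461178, minus strand) had 11.3, 6.48 and 17.8 TPM in CPEB1-KO-LPS and 8.84, 6.23 and 5.27 TPM in CPEB1-KO. It had 5.69, 40.9 and 21.8 TPM in WT-LPS and 7.99, 5.67 and 3.90 TPM in WT. WT-LPS replicates 2 and 3 lay above every other library, while WT-LPS replicate 1 lay within the WT range. The log2 change was 0.89 ± 0.60 in CPEB1-KO-LPS against CPEB1-KO (adjusted p = 0.439) and 1.66 ± 0.61 in WT-LPS against WT (adjusted p = 0.0599). The wild-type change passed in 5 of 23 alternatives. Without WT-LPS replicate 1 it was 2.19 with an adjusted p of 0.00808, and DESeq2 on all libraries gave 0.0195. Without CPEB1-KO-LPS replicate 2 and WT-LPS replicate 1 it was also 2.19 (adjusted p = 0.00467).

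Alox5ap, which encodes FLAP (chr5:149264767-149288153, plus strand), had 89.1, 53.0 and 155 TPM in CPEB1-KO-LPS and 136, 99.0 and 83.2 TPM in CPEB1-KO. It had 50.4, 183 and 139 TPM in WT-LPS and 130, 203 and 155 TPM in WT. The groups overlapped in both genotypes. The log2 change was 0.02 ± 0.51 in CPEB1-KO-LPS against CPEB1-KO (adjusted p = 0.986) and -0.76 ± 0.51 in WT-LPS against WT (adjusted p = 0.281). The block in the fit of WT-LPS and WT alone gave -0.87 ± 0.27 and an adjusted p of 0.0296.

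**Figure D2:**
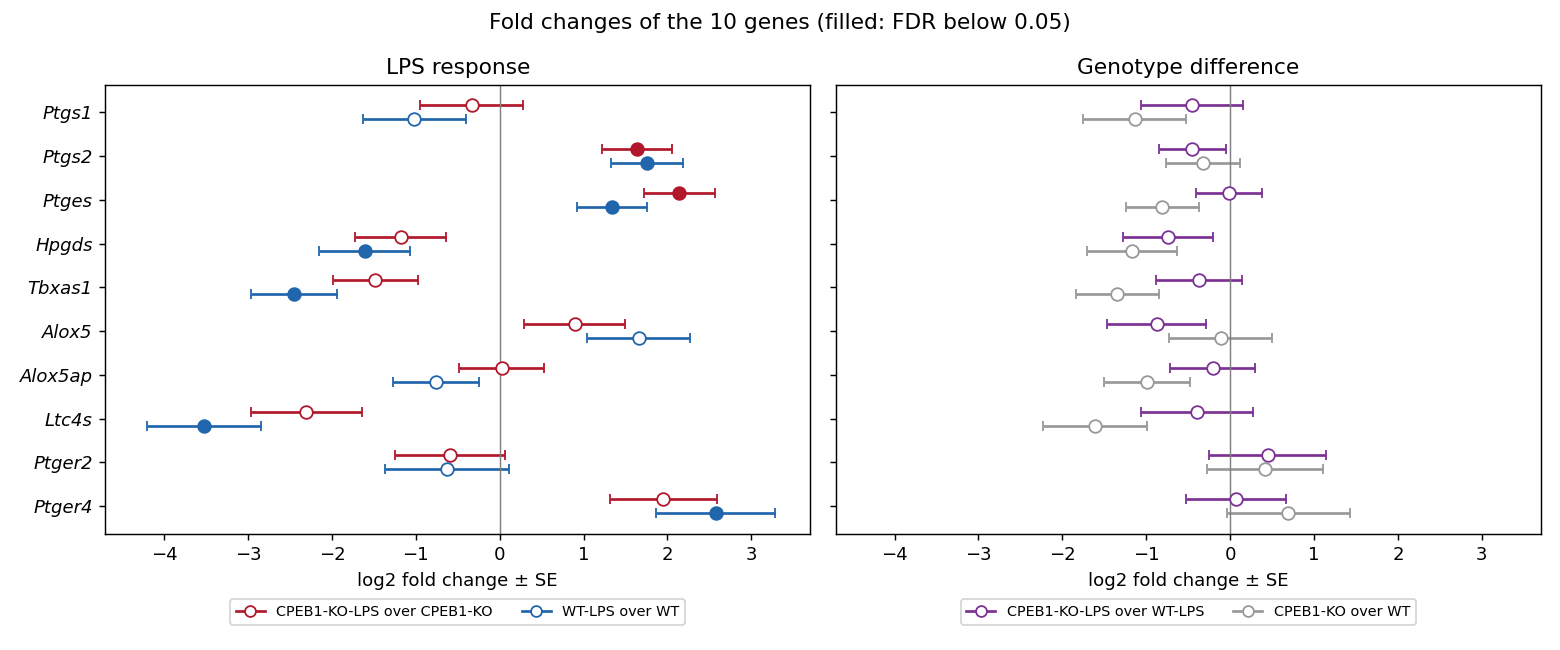
Log2 fold changes with their SE for the 10 genes, from edgeR (n = 3 libraries per group); filled points passed FDR 0.05. The left panel shows LPS against untreated in each genotype and the right panel the genotype comparisons, in which no point is filled; Ltc4s has the lowest values in the left panel.

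Ratios of TPM within a library are given here without a test, for pairs chosen after values were seen. Each pair holds a gene (Ltc4s, Ptgs2 or Tbxas1) whose TPM alone already separated all LPS from all untreated libraries. The separation of the ratios is therefore not a further result. Alox5ap over Ltc4s was 4.95, 23.7 and 4.80 in CPEB1-KO-LPS and 1.01, 1.33 and 1.07 in CPEB1-KO. The 23.7 rests on only 6 expected counts of Ltc4s and is imprecise. The same ratio was 3.76, 6.13 and 4.10 in WT-LPS and 0.641, 0.727 and 0.791 in WT. Every LPS library was thus above every untreated library. Alox5ap made up 48.9% to 51.9% of the summed TPM of the 10 genes in CPEB1-KO-LPS and 33.6% to 36.3% in CPEB1-KO, and 44.4% to 46.8% in WT-LPS and 26.0% to 30.6% in WT. Ltc4s made up 2.19% to 10.5% in CPEB1-KO-LPS and 27.3% to 34.6% in CPEB1-KO, and 7.63% to 11.8% in WT-LPS and 38.7% to 41.6% in WT. In these libraries FLAP and Ltc4s mRNA, both of the leukotriene branch, did not keep their ratio after LPS. Ptgs2 over Ptgs1 was 0.106, 0.542 and 0.103 in CPEB1-KO-LPS and 0.0349, 0.0287 and 0.0484 in CPEB1-KO. It was 0.317, 0.0657 and 0.226 in WT-LPS and 0.0189, 0.0157 and 0.0311 in WT, so COX-2 mRNA stayed below COX-1 mRNA in all 12 libraries. Tbxas1 over Ptges was 0.644, 0.207 and 2.29 in CPEB1-KO-LPS and 11.5, 7.39 and 7.97 in CPEB1-KO, and 0.427, 1.18 and 1.15 in WT-LPS and 18.9, 10.8 and 12.2 in WT.

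**Figure D3:**
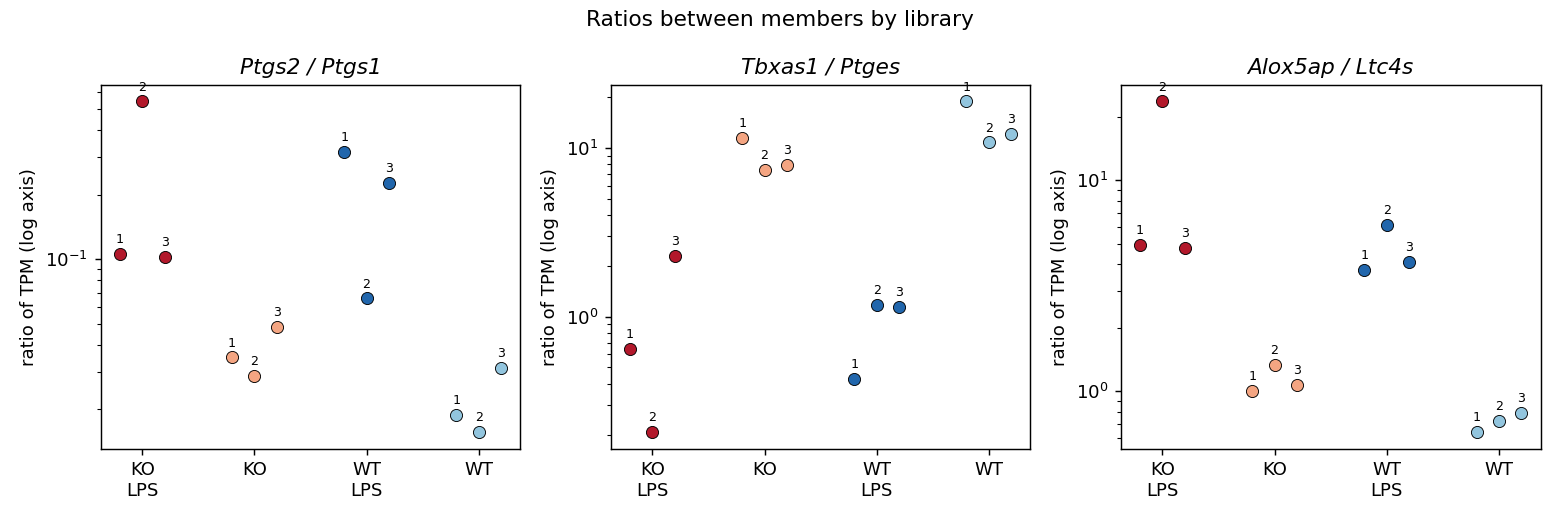
Ratios of TPM within each library for 3 pairs of genes, on log axes; points are libraries, labelled by replicate, with the groups in columns. In each panel all LPS libraries are separated from all untreated libraries. The pairs were chosen after values were seen, and Ptgs2, Tbxas1 and Ltc4s separated these libraries by TPM alone. The highest Alox5ap over Ltc4s ratio is 23.7 in CPEB1-KO-LPS replicate 2, where Ltc4s had only 6 expected counts.

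Inside the LPS groups, the order of the 3 libraries by several of these genes matched that of the microglia markers. The share of all genes with the same order was not counted, so this is a description only. In CPEB1-KO-LPS the order of the 3 libraries by Ptgs1, Alox5, Alox5ap, Tbxas1, Ltc4s and Ptger4 was that of the microglia marker level, and in WT-LPS the same held for Ptgs1, Alox5, Alox5ap and Tbxas1. Of the 12 microglia markers, 3 fell and 0 rose in CPEB1-KO-LPS against CPEB1-KO, and 7 fell and 0 rose in WT-LPS against WT. The summed TPM of the markers ran from 1937 to 6565 in CPEB1-KO-LPS, 4089 to 6695 in CPEB1-KO, 1961 to 9147 in WT-LPS and 8788 to 10043 in WT. Monocyte markers, of 8 tested, had 2 higher and 1 lower in CPEB1-KO-LPS against CPEB1-KO and 6 higher and 0 lower in WT-LPS against WT, with summed levels of 131 to 255, 25.6 to 108, 378 to 653 and 50.6 to 71.0 TPM in CPEB1-KO-LPS, CPEB1-KO, WT-LPS and WT. Neutrophil markers had 0 of 9 called in either comparison at summed levels of 523 to 4047 TPM over the 12 libraries. In edgeR the platelet markers, of 6 tested, had 0 called in CPEB1-KO-LPS against CPEB1-KO and 4 lower in WT-LPS against WT, at summed levels of 36.7 to 59.0 TPM, 41.4 to 52.6 TPM, 34.8 to 46.8 TPM and 79.9 to 157 TPM in the 4 groups in that order. Mast cell markers summed to 11.6 to 36.0 TPM, with up to 4 of the 8 listed at 0 and Cpa3 at 0 to 0.90 TPM; of the 3 tested, 1 was higher in CPEB1-KO-LPS against CPEB1-KO (Hdc, adjusted p = 0.0457) and 1 in WT-LPS against WT (Gata2, adjusted p = 0.0498). Border macrophage markers, of 8 tested, had 0 called in CPEB1-KO-LPS against CPEB1-KO and 4 lower in WT-LPS against WT, at summed levels of 33.4 to 36.1, 28.7 to 34.8, 34.6 to 77.8 and 58.1 to 62.1 TPM in CPEB1-KO-LPS, CPEB1-KO, WT-LPS and WT. Those calls came in WT-LPS against WT only, as did the called falls of Hpgds, Tbxas1 and Ltc4s and those of platelet, erythroid and B cell markers. Of all genes tested, 4185 were called there and 952 in CPEB1-KO-LPS against CPEB1-KO. The difference of LPS responses was called for 0 of the 8 border macrophage markers and for 0 of the platelet, erythroid and B cell markers. Markers of choroid plexus and ependyma, of 6 tested, were lower in both comparisons, 4 in CPEB1-KO-LPS against CPEB1-KO and 6 in WT-LPS against WT. Erythroid markers, of 4 tested, had 0 called in CPEB1-KO-LPS against CPEB1-KO and 4 lower in WT-LPS against WT, at summed levels of 7051 to 61141, 27877 to 37849, 6544 to 10887 and 41663 to 66991 TPM in the same order of groups. Of 4 B cell markers, 0 were called in CPEB1-KO-LPS against CPEB1-KO and 3 were lower in WT-LPS against WT, and of 8 endothelial markers 2 were lower in CPEB1-KO-LPS against CPEB1-KO, while 5 were higher and 1 lower in WT-LPS against WT. Each of the T and NK cell, neuron, astrocyte, oligodendrocyte and mural lists had at most 2 genes called in either comparison. Neuron markers summed to 2557 to 4865, 4024 to 5606, 2189 to 6425 and 1531 to 4334 TPM in CPEB1-KO-LPS, CPEB1-KO, WT-LPS and WT. They were highest of their group in CPEB1-KO-LPS replicate 2 (4865 TPM, beside 1937 for microglia markers) and WT-LPS replicate 1 (6425 beside 1961). Astrocyte markers summed to 828 to 3125 TPM and oligodendrocyte markers to 2020 to 8109 TPM over the 12 libraries. Platelets and mast cells are among the cell types that also express several genes of this pathway. Neutrophil markers had a higher summed TPM than platelet or mast cell markers in every library. The part of each cell type in the results, monocytes and neutrophils included, was not tested.

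After the group means were removed, Ptgs1, Tbxas1 and Alox5ap varied together over the 12 libraries (r = 0.965 for Ptgs1 with Alox5ap and 0.988 for Tbxas1 with Alox5ap), while Ptges did not follow them (r = -0.23 with Ptgs1 and -0.04 with Alox5ap). The libraries share their preparation, and r is given as a description. Among all other genes tested, those most like Ptgs1 in log2 CPM (counts per 1e+06) over the 12 libraries included Havcr2 (r = 0.988, rho = 0.930) and F11r (r = 0.982, rho = 0.986). Alox5ap was most like C1qc (r = 0.989, rho = 0.958), Pla2g4a (r = 0.988, rho = 0.986), the cytosolic phospholipase A2 that frees arachidonic acid, and Ctsh (r = 0.979, rho = 0.972). Alox5 was most like Shisa5 (r = 0.968, rho = 0.951), Nt5dc1 (r = 0.959, rho = 0.853) and Slc12a4 (r = 0.945, rho = 0.874). Ptgs2 was most like Csrnp1 (r = 0.968, rho = 0.972), Gem (r = 0.965, rho = 0.923) and Plat (r = 0.953, rho = 0.944).

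**Figure D4:**
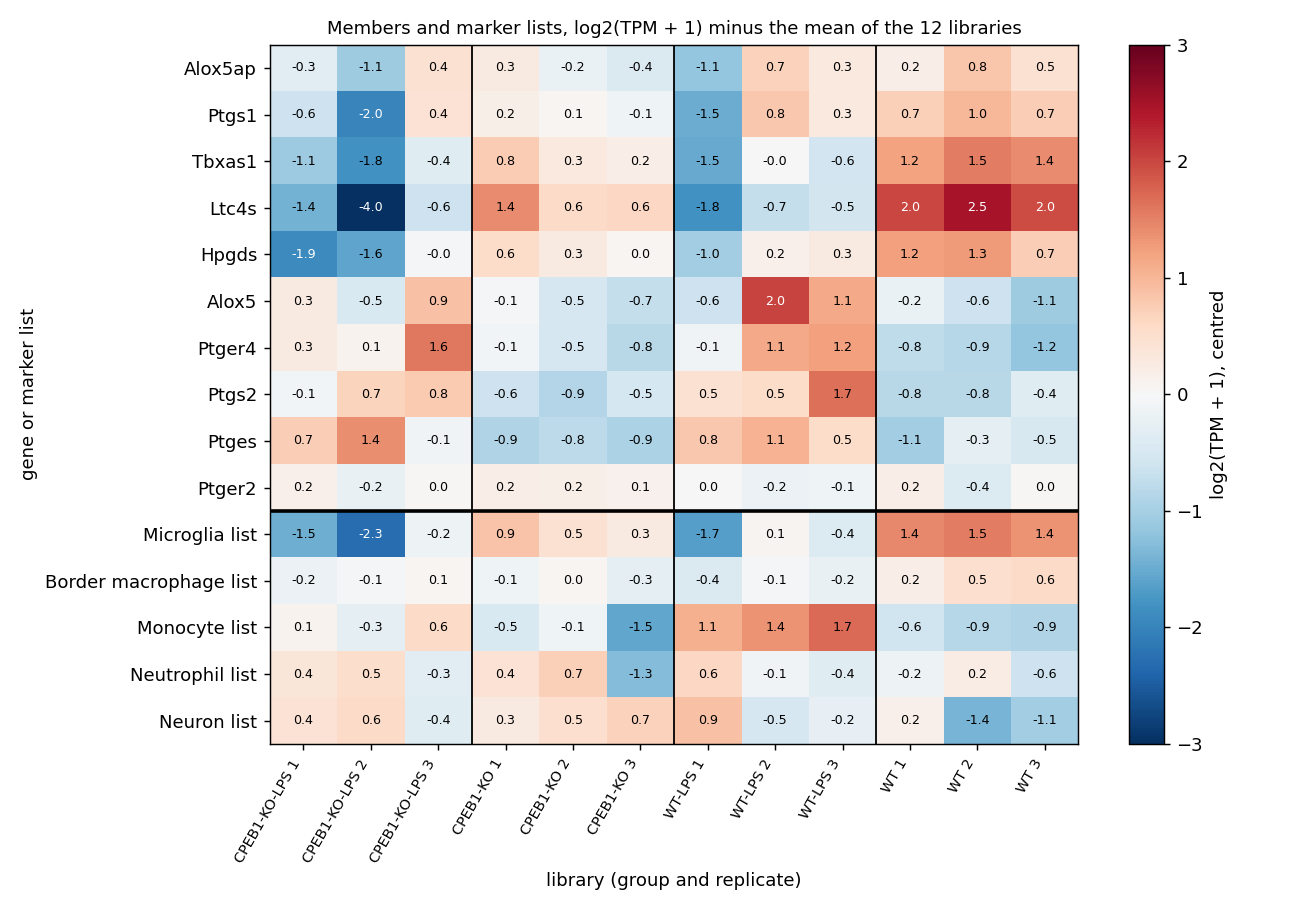
Log2(TPM + 1) of each of the 10 genes, and the mean of 5 marker lists, minus the mean of the 12 libraries (colour and number in each cell; libraries in columns by group). CPEB1-KO-LPS replicate 2 and WT-LPS replicate 1 have the lowest microglia list values and low Ptgs1, Tbxas1, Alox5ap and Ltc4s, but not low Ptges.

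The comparison of genotypes asks whether these genes differ between mice labelled CPEB1 knockout and wild type. In libraries labelled CPEB1-KO against WT, 8 of the 10 genes had a negative log2 change in edgeR, but 0 of 10 passed, where 0.0327% of all genes did. With limma on log2(TPM + 1), the changes lay a median of 0.33 log2 units above those of edgeR. Alox5 (0.20) and Ptgs2 (0.0023) were then above 0 and not called. The unadjusted edgeR p was under 0.05 for 3 of the 10 and for 2844 of the 15295 genes tested. DESeq2 called 0 of the 10. The lowest adjusted p belonged to Tbxas1 (log2 change -1.34 ± 0.49, adjusted p = 0.202), followed by Ltc4s (-1.61 ± 0.62, 0.212) and Hpgds (-1.17 ± 0.54, 0.266). Ptgs1 had -1.14 ± 0.62 (0.334), Alox5ap -0.99 ± 0.51 (0.315) and Ptges -0.81 ± 0.43 (0.331). By CPM, 5 of the 10 genes (Ptgs1, Hpgds, Tbxas1, Alox5ap and Ltc4s) were lower in all 3 CPEB1-KO libraries than in all 3 WT libraries, where 13.9% of all genes tested were, and by TPM 4 of these 5 were, all but Alox5ap. The microglia marker level was also lower in each CPEB1-KO library (7.55 to 8.14) than in each WT library (8.64 to 8.82), with 0 of 12 markers called in edgeR, and its part in these values was not tested. The median log2 change of the 10 genes was -0.90, beside -0.03 over all genes and -1.13 over the microglia markers. It was -1.22 over the platelet, -1.03 over the erythroid and -0.96 over the border macrophage markers. It was above 0 over the neuron (0.82), endothelial (0.36) and choroid plexus and ependyma (0.21) markers. The part of these lists was not tested either.

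After LPS, CPEB1-KO-LPS against WT-LPS gave 0 of 10 genes past the threshold, where 0.00654% of all genes passed, and 0 of 10 with an unadjusted edgeR p under 0.05 or a DESeq2 call. The groups overlapped for all 10 genes. Values ran from -0.87 ± 0.59 for Alox5 (adjusted p = 0.583) to 0.45 ± 0.70 for Ptger2 (adjusted p = 0.826), with Ptges at -0.01 ± 0.39, Ptgs2 at -0.45 ± 0.40 and Ltc4s at -0.39 ± 0.67. The SEs ran from 0.39 to 0.70, and missing the threshold does not show that the groups were alike.

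The LPS response of the libraries labelled knockout minus that of wild type was tested directly. None of the 10 genes passed (0 of 10 at an unadjusted edgeR p under 0.05 or by DESeq2), where 0.00654% of all genes did. The difference was 1.22 ± 0.90 for Ltc4s (adjusted p = 0.531), 0.97 ± 0.70 for Tbxas1 (0.519), 0.80 ± 0.59 for Ptges (0.524), -0.13 ± 0.60 for Ptgs2 and -0.76 ± 0.85 for Alox5. The falls called in WT-LPS against WT and not in CPEB1-KO-LPS against CPEB1-KO are therefore not shown to differ between genotypes. Averaged over LPS, with 6 libraries per genotype, 0 of 10 genes differed, where 0.111% of all genes did. The unadjusted edgeR p was under 0.05 for 1772 of the 15295 genes tested and for 3 of the 10. These were Hpgds (-0.96 ± 0.38, adjusted p = 0.403), Tbxas1 (-0.88 ± 0.37, 0.411) and Ltc4s (-1.06 ± 0.48, 0.427).

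Because CPEB1 binds mRNAs through a short element in the 3′ untranslated region (UTR), the GENCODE UTRs of the 10 genes were searched for it as TTTTAT or TTTTAAT. Of 19150 genes, 54.0% held at least 1 match, with a median UTR of 858 bases. Ptger2 held 6 matches, Ptgs2 and Hpgds 4 each, Ptges 2, Ltc4s and Ptger4 1 each, and Ptgs1, Tbxas1, Alox5 and Alox5ap 0. The 3 genes with the lowest adjusted p in CPEB1-KO against WT thus held 0 (Tbxas1), 1 (Ltc4s) and 4 (Hpgds). ATTTA, the core of AU-rich elements that mark unstable mRNAs, occurred 14 times in the 2445-base UTR of Ptgs2, more than in 97.7% of genes, 6 times in Ptger2, 5 times in Ptger4 and 0 to 2 times in the others. A match is a description of the sequence only.

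Other genes of the pathway were counted by role. Of 10 genes for the release of arachidonic acid that were tested, 1 rose and 2 fell in CPEB1-KO-LPS against CPEB1-KO, and 0 rose and 5 fell in WT-LPS against WT. Pla2g15, the lysosomal phospholipase A2, averaged 20.1 ± 4.60 TPM in CPEB1-KO-LPS and 49.4 ± 9.96 TPM in CPEB1-KO, and 16.3 ± 1.68 TPM in WT-LPS and 61.5 ± 7.65 TPM in WT. Its log2 change was -1.28 ± 0.21 in CPEB1-KO-LPS against CPEB1-KO (adjusted p = 0.00247) and -2.26 ± 0.21 in WT-LPS against WT (adjusted p = 4.41e-05). The secreted Pla2g5 fell in both as well (-1.66 ± 0.34 and -1.91 ± 0.36 in the same order, adjusted p = 0.0118 and 0.00243). Pla2g4e rose in CPEB1-KO-LPS against CPEB1-KO (2.43 ± 0.43, adjusted p = 0.00471), and Pla2g4b (-3.36 ± 0.46, adjusted p = 0.000449) and Daglb (-0.99 ± 0.23, adjusted p = 0.00783) fell in WT-LPS against WT.

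Of 9 other prostanoid synthases and 3 other prostanoid receptors tested, edgeR called 0 in either LPS comparison. The most abundant was Ptgds, the lipocalin-type prostaglandin D2 synthase known from meninges and choroid plexus, at 3721 ± 612 TPM in CPEB1-KO-LPS, 2814 ± 101 TPM in CPEB1-KO, 2027 ± 753 TPM in WT-LPS and 2659 ± 512 TPM in WT. Of 6 genes of prostaglandin transport and breakdown, only Hpgd, the dehydrogenase that inactivates prostaglandins, was called. It averaged 9.61 ± 1.30 TPM in CPEB1-KO-LPS and 65.6 ± 22.0 TPM in CPEB1-KO, and 14.8 ± 3.64 TPM in WT-LPS and 152 ± 47.0 TPM in WT. Hpgd fell by 2.73 ± 0.37 log2 units in CPEB1-KO-LPS against CPEB1-KO (adjusted p = 0.000797) and by 3.77 ± 0.39 in WT-LPS against WT (adjusted p = 6.56e-05). Its fall stands beside the rises of Ptgs2 and Ptges in both genotypes.

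Among 9 other lipoxygenase and leukotriene genes, 0 rose and 1 fell in CPEB1-KO-LPS against CPEB1-KO, and 2 rose and 2 fell in WT-LPS against WT. Ggt5, which converts leukotriene C4 to D4, fell in both (-1.98 ± 0.44, adjusted p = 0.0171, in CPEB1-KO-LPS against CPEB1-KO, and -2.56 ± 0.45, adjusted p = 0.00171, in WT-LPS against WT). In WT-LPS against WT, Ggt1 fell (-2.47 ± 0.68, adjusted p = 0.0169), and Dpep2, a leukotriene D4 dipeptidase (2.01 ± 0.63, 0.0323), and Alox12b, a lipoxygenase known from skin (1.78 ± 0.52, 0.0226), rose. Of 4 lipid mediator receptors tested, Fpr2, a formyl peptide and lipoxin receptor, rose in both comparisons. It averaged 28.7 ± 8.18 TPM in CPEB1-KO-LPS and 1.31 ± 1.15 TPM in CPEB1-KO, and 33.7 ± 4.69 TPM in WT-LPS and 1.503 ± 0.121 TPM in WT. Cysltr1, a receptor of the cysteinyl leukotrienes made by way of Ltc4s, fell in both (-1.90 ± 0.47, adjusted p = 0.0316, in CPEB1-KO-LPS against CPEB1-KO, and -2.65 ± 0.48, adjusted p = 0.00200, in WT-LPS against WT). The leukotriene B4 receptor Ltb4r1 rose in WT-LPS against WT (2.86 ± 0.64, adjusted p = 0.00620). In the 2 genotype comparisons, CPEB1-KO against WT and CPEB1-KO-LPS against WT-LPS, edgeR called 0 genes of these lists.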

How the data were processed

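Poly(A) RNA was sequenced in 12 libraries, 1 animal each. The authors deposited expected counts per gene, not normalised between libraries, and TPM (transcripts per 1e+06) computed within each library. Per the submitters' processing notes, cutadapt, RSEM and the mm10 build were used; the sources used here give no versions, filters or strand setting. Groups came from the labels. In the tables, 27 gene names turned into dates were restored from accessions.

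After rounding, expected counts were tested with edgeR 4.0.16 (R 4.3.3): filterByExpr by group, TMM, quasi-likelihood fit of 4 group means to all 12 libraries (8 residual degrees of freedom), two-sided, Benjamini-Hochberg FDR 0.05 over 15295 genes. An additive model of genotype and LPS gave the average genotype difference. The procedure was tested on simulated data. Every adjusted p is from this fit unless DESeq2 1.42.0 or limma 3.58.1 is named. Errors of log2 changes are SE and those of TPM are SD over 3 libraries, which measure the spread between animals. Positions are from GENCODE M21 (GRCm38), promoter sequences from RefSeq (GRCm38.p6).

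The 10 genes, the pathway and marker lists and the alternatives were chosen with earlier results of these data known. The genes named are the 10, Cpeb1, up to 4 genes per pathway list with the smallest unadjusted p in each LPS comparison, and the 3 most correlated genes of Ptgs1, Ptgs2, Alox5 and Alox5ap, with predicted genes left out; 1 gene that this rule names is not reported here. Marker genes named as examples, and the TPM ratios, were chosen after values were seen. Same-numbered WT-LPS and WT libraries deviated together from their group means (r = 0.401, 0.167 and 0.193 for replicates 1 to 3, all above 0.1), so the blocked fit of those groups is given where it changes a call. No pair of libraries of the same group differed by as little as sampling noise, and pairs across groups were not compared in this way.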

Additional observations from a re-analysis of the deposited data

How the results depend on the processing

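The direction and the call of Ltc4s and Tbxas1 in WT-LPS against WT held in every alternative run; calls of the other genes that were lost or gained are given with each gene. Leaving out 1 library at a time, 3 to 7 of the 10 genes were called in WT-LPS against WT (2714 to 4724 of all genes) and 0 to 4 in CPEB1-KO-LPS against CPEB1-KO (355 to 1132), while all genes called ranged from 2 to 1292 in CPEB1-KO against WT, 1 to 11 in CPEB1-KO-LPS against WT-LPS, 0 to 441 for the difference of LPS responses and 5 to 47 for the average. The 1292 and the 441 came without WT replicate 1. Over these settings and all others, 0 of the 10 genes were called in the genotype comparisons or the difference. DESeq2 called 4 of the 10 genes in CPEB1-KO-LPS against CPEB1-KO, and 1621 of all genes there, 492 in CPEB1-KO against WT, 80 in CPEB1-KO-LPS against WT-LPS, 281 for the difference and 105 for the average. A fit of the WT-LPS and WT libraries alone called 2592 genes. In CPEB1-KO against WT there were 11 calls with no filter, 9 (2 higher, 7 lower, beside 5 lower in edgeR) with limma on log2(TPM + 1) and 3 with the replicate block. In CPEB1-KO-LPS against WT-LPS there were 3 with no filter, 4 and 9 with limma at pseudocounts of 1 and 0.1, and 5 with limma and no filter. For the difference there were 0 with RLE size factors, 2 and 0 with limma at 1 and 0.1, and 0 with limma and no filter. The average had 10 with the replicate block. Without CPEB1-KO-LPS replicate 2 and WT-LPS replicate 1, an alternative chosen after seeing the data, the counts were 3 in CPEB1-KO against WT, 0 for the difference and 9 for the average. The cause of these changes was not tested.

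The following changes of sign concern values that were not called under either setting. In WT-LPS against WT, Ptger2 was 0.12 with limma at 0.1 and ran from -1.04 to 0.0515 leaving out 1 library. In CPEB1-KO-LPS against CPEB1-KO, Ptgs1 was 0.12 without the 2 libraries named above and ran from -1.31 to 0.12, and Alox5ap was -0.20 with limma at 1, at 0.1 and with no filter, -0.0701 with the replicate block, and ran from -0.65 to 0.37. In CPEB1-KO against WT, limma at 1, at 0.1 and with no filter gave 0.0023, 0.0098 and 0.0023 for Ptgs2 and 0.20, 0.23 and 0.20 for Alox5; Alox5 ran from -0.38 to 0.0535 and Ptger2 from -0.0846 to 1.09. In CPEB1-KO-LPS against WT-LPS, Ptger4 was -0.10, -0.12 and -0.10 with limma at 1, at 0.1 and with no filter and -0.0107 without the 2 libraries; leaving out 1 library gave -0.93 to 0.39 for Ptger4, -1.44 to 0.17 for Ptgs1, -0.78 to 0.0445 for Ptgs2, -0.50 to 0.26 for Ptges, -0.88 to 0.29 for Alox5ap, -1.39 to 0.13 for Ltc4s and -1.07 to 0.19 for Tbxas1. On average over LPS, Ptger4 ran from -0.15 to 0.54.

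With the replicate number as a block in all 12 libraries, 3720 genes were called in WT-LPS against WT and 669 in CPEB1-KO-LPS against CPEB1-KO, and no call of the 10 genes changed. Same-numbered libraries of the other 5 pairs of groups did not all deviate together (r from -0.37 to 0.25). The blocked fit of WT-LPS and WT alone, also added after seeing the data, called 3955 genes and changed no call of the 10 genes other than those of Ptgs1 and Alox5ap; Ptger2 was below its count filter.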
